A study of Drosophila melanogaster with 4 samples.

Results

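Genes whose symbols begin with Acp or Sfp followed by a digit were examined in RNA recovered with the poly(A)-binding protein PABP from adult Drosophila melanogaster. The name rule took 47 of the 17806 named genes, 19 with an Acp symbol and 28 with an Sfp symbol. It used no measured value. Most of these symbols stand for accessory gland protein or seminal fluid protein and end in a cytological map position. The rule also took Acp1 and Acp65Aa, which encode adult cuticle proteins. They stayed members by the rule, and the main counts are given with and without them.

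Seminal fluid proteins are made mainly in the male accessory glands and are passed to the female with sperm at mating. They are known to change her egg laying, her readiness to mate again, and the storage and use of sperm. Many are small secreted peptides, and others are protease inhibitors, lectins or prohormones. The gland lies outside the gut, so RNA of these genes is a marker of male reproductive tissue in a whole-animal extract.

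Each sample was made from 200 flies, 100 of each sex, that were powdered, irradiated with ultraviolet light and lysed. The 2 PABP IP libraries hold RNA from the FLAG bead precipitate and carry intestinal progenitor cells as their cell type in the labels. The 2 input libraries hold RNA of the whole extract and carry all cells as theirs. The labels give the stage as adult and name no genotype, strain, driver, age or treatment, and they do not say if replicates were separate fly collections. The p-values therefore speak only of the spread among these libraries. No control precipitation was analysed here, so expression in progenitors, binding by PABP and background on the beads cannot be told apart. In bulk RNA such as the input, fewer cells of a type and less RNA per cell cannot be told apart. Total counts were 8987420 and 10761349 in the IP and 2464629 and 3346231 in the input. Of the 12 progenitor genes listed, all 11 tested were higher in the IP, against 37.1% of all genes tested. This list was chosen with earlier results of these data known. The marker gene esg stood at 4.69 ± 0.703 CPM in the input and at 1266 ± 49.5 CPM in the IP (SD, n = 2 each). CPM here are counts scaled to the library size with trimmed mean of M-values (TMM) factors.

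Not every member could be measured. In all 4 libraries 15 members had 0 counts, 2 had 1 to 19 counts in sum, and 30 reached the minimum of 20 counts. Just inside that minimum were Acp1 with 23 and Sfp23F with 25 counts, and just outside were Sfp36F with 18 and Sfp38D with 17. All 15 members without a count lie wholly inside another gene in the RefSeq table, and none of the other 32 does. Among protein-coding genes of the table, 14.1% lie wholly inside another gene, against 31.9% of the members. Of those 1869 nested genes 99.4% had 0 counts in all 4 libraries, against 4.90% of the 11341 that are not nested. A count of 0 therefore says nothing about the RNA of these 15 genes.

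Some of the best studied members are among those that could not be measured. Acp36DE, which is needed for sperm storage, lies inside Fas3. Acp62F, a trypsin inhibitor, lies inside Mrtf, and Acp33A, tied to sperm competition, lies inside kek2. Sfp24Ba, Sfp24Bb, Sfp24Bc and Sfp24Bd share the host Drgx, and Sfp33A2, Sfp33A3 and Sfp33A4 share Pde1c. Acp32CD lies inside Samuel, Acp63F inside Scsalpha1, Acp95EF inside Spase22-23, Sfp65A inside CG13300 and Sfp87B inside svp.

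Seminal fluid genes were lower in the IP. Together the 47 members took 0.0158% of the counts in PABP IP 1 (95% Wilson interval 0.0150% to 0.0166%) and 0.0148% in PABP IP 2 (0.0141% to 0.0155%). They took 0.125% in input 1 (0.120% to 0.129%) and 0.113% in input 2 (0.109% to 0.116%). On the CPM scale their summed level was 208 and 203 CPM in the IP libraries and 937 and 831 CPM in the input libraries. The IP mean of 205 ± 2.89 CPM was 23.2% of the input mean of 884 ± 74.6 CPM (SD, n = 2 each). Both IP libraries lay below both input libraries. An exact permutation test over the 4 libraries gave a two-sided p of 0.333, the smallest that 2 against 2 allows. Without Sfp60F, which held 25.8% of all member counts, the IP mean was 26.3% of the input mean, and without Acp1 and Acp65Aa it was 23.1%.

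Of the 29 members that passed the count filter of the test across all genes, 26 were lower in the IP, none was higher and 3 were not called (two-sided quasi-likelihood test of edgeR over 9989 genes, called at a Benjamini-Hochberg adjusted p below 0.05). Over all genes tested 38.8% were called lower and 37.1% higher. In DESeq2, 18 of 32 members were called lower and none higher, against 2520 lower and 3531 higher of all 12967 genes fitted. The median log2 fold change of the 29 members was -1.76, and that of all genes tested was -0.10. The filter favours this direction in part: 15 of the 29 members passed through the input libraries and not through both IP libraries, and 14 passed in both groups. Among the 30 members with at least 20 counts, which is a minimum on the sum of all 4 libraries, 27 had both IP libraries below both input libraries, against 45.1% of all genes with such a sum. The other 3, Acp1, Sfp26Ac and Sfp78E, overlapped between groups. Without Acp1 and Acp65Aa, 25 of 28 tested members were lower, with a median of -1.74.

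**Figure D1:**
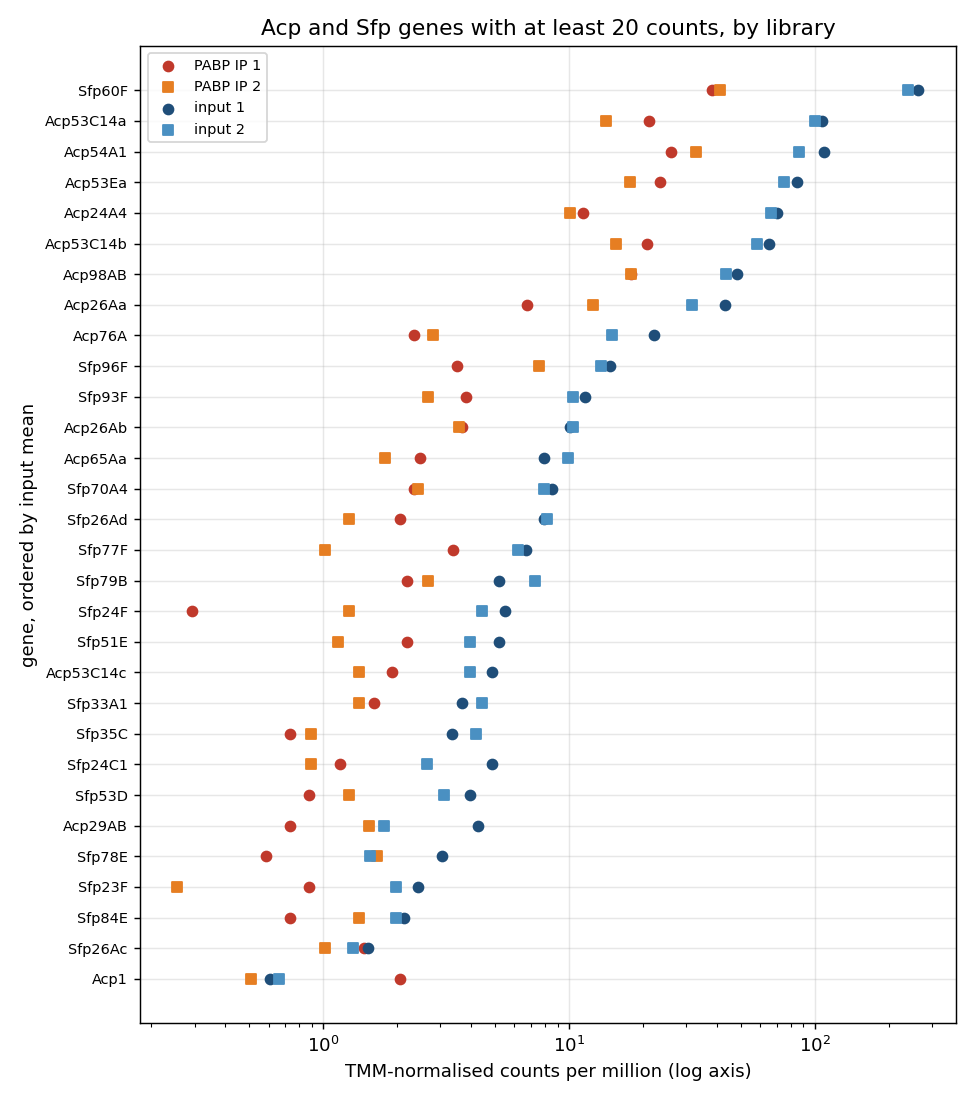
CPM with TMM scaling (log axis) of the 30 Acp and Sfp genes with at least 20 counts in sum, ordered by input mean, with 1 point per library (PABP IP red and orange, input dark and light blue). In 27 of the 30 rows both IP points lie to the left of both input points, and the rows at the bottom, with the fewest counts, hold the 3 that overlap.

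The most abundant member was Sfp60F, a seminal fluid protein gene. It had 261 and 323 counts in PABP IP 1 and 2 and 867 and 1091 in input 1 and 2, or 38.2 and 41.2 CPM against 265 and 241 CPM. The groups lay far apart, and the level was 6.34-fold lower in the IP (log2 -2.67 ± 0.11 SE, adjusted p = 9.53e-13 by edgeR). In the RefSeq order Sfp60F stands beside EbpII, an ejaculatory bulb protein gene, which was lower by a similar amount (log2 -2.36 ± 0.13 SE, adjusted p = 1.94e-11). Per kilobase of gene length Sfp60F was also the highest member in the input, at 560 CPM per kilobase. Acp54A1 followed at 321 and Acp98AB at 264 CPM per kilobase. In the IP these 3 lay close together at 88.1, 96.4 and 102 CPM per kilobase, differences smaller than the spread between the IP libraries of Acp54A1.

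Acp54A1 and Acp98AB encode small accessory gland peptides. Acp54A1 had 178 and 258 counts in the IP and 359 and 393 in the input, which is 26.1 and 32.9 CPM against 110 and 86.7 CPM. It was 3.29-fold lower in the IP (log2 -1.72 ± 0.14 SE, adjusted p = 7.5e-09). Acp98AB stood at 17.9 CPM in both IP libraries and at 48.5 and 43.7 CPM in the input, from 122, 140, 159 and 198 counts. Its fall of 2.57-fold was the smallest among the 8 most abundant members (log2 -1.36 ± 0.15 SE, adjusted p = 2.38e-07).

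The Acp53 genes, which form an unbroken run of 4 neighbours in the RefSeq order, were all lower in the IP but not by the same amount. Variation in Acp53Ea has been tied to sperm competition, and the other 3 genes are its relatives. At the start of the run, Acp53C14a had 21.1 and 14.2 CPM in the IP and 107 and 100 CPM in the input (log2 -2.56 ± 0.15 SE, adjusted p = 8.76e-11). Next to it, Acp53C14b had 20.8 and 15.6 CPM against 65.3 and 58.5 CPM (log2 -1.77 ± 0.15 SE, adjusted p = 1.34e-08). Acp53Ea itself had 23.4 and 17.7 CPM against 84.8 and 75.3 CPM (log2 -1.96 ± 0.15 SE, adjusted p = 1.59e-09). Acp53C14c, at the end of the run, was scarce, with 13, 11, 16 and 18 counts, and lower by 2.64-fold (log2 -1.40 ± 0.40 SE, adjusted p = 0.00418). In DESeq2 Acp53C14c was not called (log2 -1.32, adjusted p = 0.104). Acp53C14c lies beside unc-104, a kinesin gene that was higher in the IP (log2 1.86).

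The ratio of pooled IP counts to pooled input counts, scaled by TMM library size, was 0.169 for Acp53C14a (exact 95% interval 0.146 to 0.194). It was 0.257 for Acp53Ea (0.223 to 0.296) and 0.294 for Acp53C14b (0.252 to 0.342), so the interval of Acp53C14a did not reach those of its neighbours. These intervals cover counting error only, and the difference between the genes' ratios was not tested over samples. All 3 genes were also lower in PABP IP 2 than in PABP IP 1 by more than counting error. The IP 2 to IP 1 ratio was 0.672 (0.520 to 0.867) for Acp53C14a, 0.758 (0.599 to 0.957) for Acp53Ea and 0.749 (0.583 to 0.961) for Acp53C14b.

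The ovulation gene Acp26Aa, whose product ovulin is a prohormone that raises ovulation after mating, had 46 and 98 counts in the IP and 141 and 143 in the input. These are 6.74 and 12.5 CPM against 43.0 and 31.6 CPM. The IP libraries lay apart from each other, with an IP 2 to IP 1 ratio of 1.86 whose exact interval lay above 1, yet both lay below the input (log2 -1.92 ± 0.24 SE, adjusted p = 1.23e-06). Its neighbour Acp26Ab, a small peptide gene, had 3.66 and 3.58 CPM in the IP and 10.1 and 10.4 CPM in the input (log2 -1.50 ± 0.28 SE, adjusted p = 0.000133).

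Acp76A and Acp24A4 encode protease inhibitors. Acp76A, a serpin, had the lowest fold change of all members tested, with 2.34 and 2.81 CPM in the IP and 22.3 and 15.0 CPM in the input. It was 7.02-fold lower (log2 -2.81 ± 0.29 SE, adjusted p = 1.48e-07). Acp24A4, a Kunitz-type inhibitor, had 11.4 and 10.1 CPM in the IP and 70.5 and 66.4 CPM in the input, a 6.36-fold difference (log2 -2.67 ± 0.15 SE, adjusted p = 3.22e-11). In both genes every IP value lay below every input value.

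The lectin gene Acp29AB, which acts in sperm retention, was near the lower end of what these counts can resolve. It had 5 and 12 counts in the IP and 14 and 8 in the input, or 0.732 and 1.53 CPM against 4.27 and 1.77 CPM. The fall passed the threshold with the highest adjusted p of the called members (log2 -1.28 ± 0.53 SE, adjusted p = 0.036). It did not pass without PABP IP 1 (log2 -0.86, adjusted p = 0.206), without input 1 (log2 -0.61, adjusted p = 0.464) or in DESeq2 (log2 -1.27, adjusted p = 0.225). Over all alternatives its adjusted p ranged from 0.000522 to 0.464. Its neighbour lectin-29Ca, a lectin gene with more counts, was lower too (log2 -2.44 ± 0.33 SE, adjusted p = 3.69e-06).

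The remaining called members are mostly Sfp genes of which little is known, and their log2 fold changes ran from -2.55 to -1.31. Sfp96F had 3.51 and 7.53 CPM in the IP and 14.6 and 13.5 CPM in the input (log2 -1.31 ± 0.30 SE, adjusted p = 0.000814), and without PABP IP 2 the log2 fold change of Sfp96F was -2.00. Sfp96F lies between Mst57Dc and Mst57Db, male-specific gland genes that were lower as well (log2 -2.00 and -1.44). Sfp79B had a log2 fold change of -1.37 ± 0.35 SE, beside msopa, another male gland gene, at -1.33 ± 0.16 SE. RpLP0, on the other side of Sfp79B, stood at a similar -1.19 ± 0.14 SE. Sfp79B was not called in DESeq2 (log2 -1.26, adjusted p = 0.0636) or without input 2 (log2 -1.09, adjusted p = 0.065). Sfp26Ad (log2 -2.28), Sfp35C (-2.20) and Sfp24F (-2.55) were among the lower values, and Sfp93F (-1.76) and Sfp70A4 (-1.77) lay near the median. Not every neighbour was lower: CG15432 beside Sfp24F was higher (log2 1.02 ± 0.25 SE), and lncRNA:CR43912 beside Sfp70A4 was not called (log2 -0.22 ± 0.34 SE). Sfp24F rested on 2 and 10 counts in the IP, and its log2 fold change was -1.90 without PABP IP 1 and -3.96 without PABP IP 2. Sfp23F had 6 and 2 counts in the IP and 8 and 9 in the input. Its log2 fold change was -1.95, its adjusted p 0.00666, and it was not called without PABP IP 2 (log2 -1.30, adjusted p = 0.133), without input 1 (log2 -1.83, adjusted p = 0.0514) or in DESeq2 (log2 -1.88, adjusted p = 0.134). Without PABP IP 1 the log2 fold change of Sfp23F was -2.96, with the call kept.

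The 3 tested members without a call all had few counts. Sfp26Ac had 10 and 8 counts in the IP and 5 and 6 in the input, or 1.46 and 1.02 CPM against 1.53 and 1.32 CPM. Its groups overlapped, and its ratio of 0.871 had an interval of 0.390 to 2.04 (log2 -0.19 ± 0.52 SE, adjusted p = 0.748). Sfp78E had 0.586 and 1.66 CPM in the IP and 3.05 and 1.55 CPM in the input (log2 -0.91 ± 0.55 SE, adjusted p = 0.144), and it overlaps other genes in part. Sfp84E had 0.732 and 1.40 CPM against 2.14 and 1.99 CPM (log2 -0.90 ± 0.51 SE, adjusted p = 0.115) and overlaps Os-C in part. The intervals of Sfp78E (0.256 to 1.11) and Sfp84E (0.249 to 1.14) include 1 as well as the median ratio of the 30 members, 0.302, but lie above the ratio of all members summed, 0.235.

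The cuticle protein genes taken by the rule did not share 1 pattern. Acp65Aa had 2.49 and 1.79 CPM in the IP and 7.93 and 9.93 CPM in the input (log2 -2.08 ± 0.33 SE, adjusted p = 2.38e-05). Acp1 did not pass the filter. It had 14 and 4 counts in the IP and 2 and 3 in the input, which gives a ratio of 1.92 with an interval of 0.686 to 6.61. PABP IP 1 lay above the other 3 libraries, and Acp1 was the only member with a ratio above 1. Without PABP IP 1 this direction turned, since the 0.511 CPM of PABP IP 2 lay below both input values, 0.610 and 0.662 CPM.

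**Figure D2:**
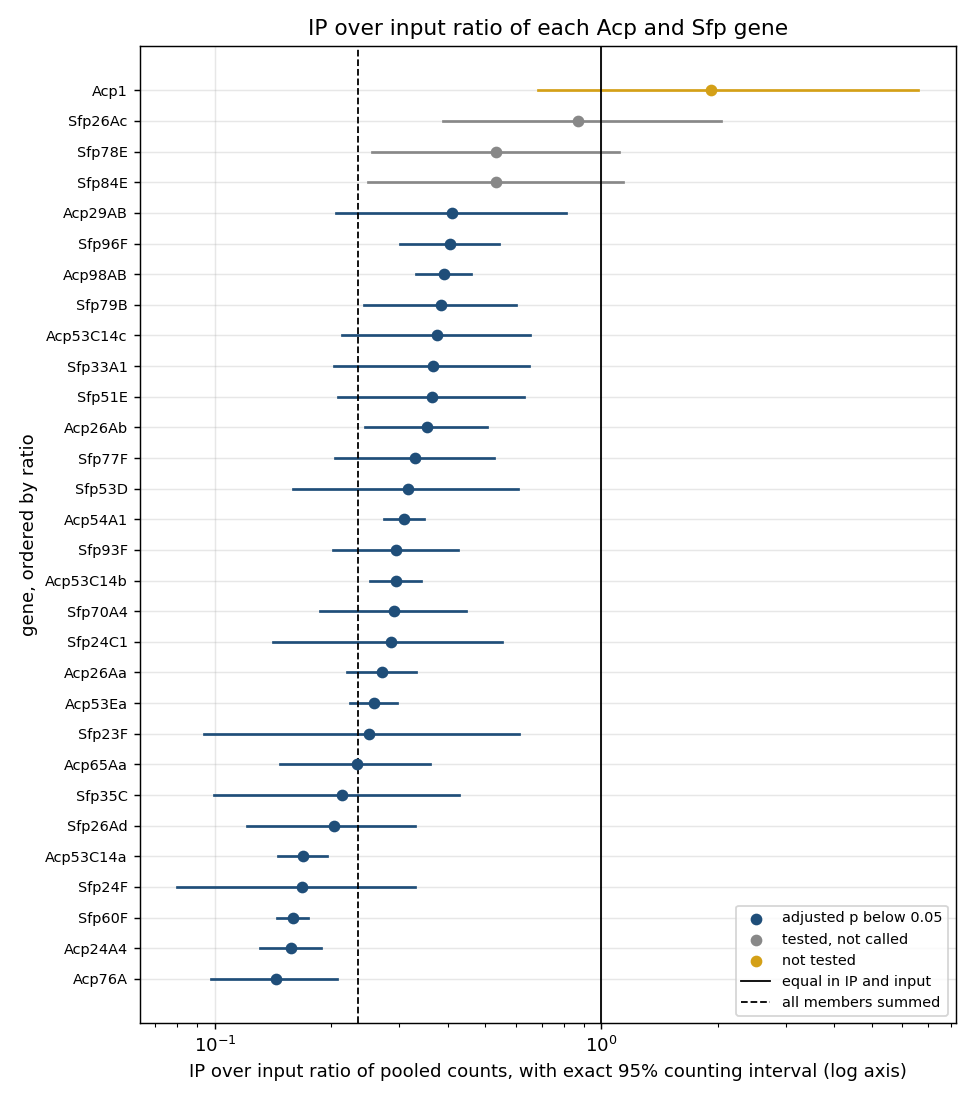
Ratio of pooled IP counts to pooled input counts for the 30 Acp and Sfp genes with at least 20 counts in sum, scaled by TMM library size, with exact 95% counting intervals (log axis). The intervals of 26 genes lie below 1 (solid line), the other 4 include it, and the dashed line marks the ratio of all members summed, 0.235.

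Members kept nearly the same order of abundance in the IP as in the input. Across the 30 members with at least 20 counts, log2 CPM in the IP and input means correlated at Pearson r = 0.938 and Spearman rho = 0.909. The points are genes that share the same 4 libraries and are not independent replicates, so this is a description. The ratio was not the same for all of them. The summed ratio was 0.235 (0.225 to 0.245), from 3010 IP and 6834 input counts. The intervals of 16 members held it, those of 10 lay above it and those of 4, Sfp60F, Acp53C14a, Acp24A4 and Acp76A, lay below it. Fold changes were more negative in members with more input RNA (Spearman rho = -0.524, n = 29), although both quantities use the same input counts. The 12 members with an input mean of at least 10 CPM were all called lower with a median of -1.84. Of the 18 with less, 14 were called, and the median of the 17 tested was -1.58. A split by input level itself favours lower fold changes and more calls in the upper group. Over the 47 members gene length ran from 168 to 2980 bases (median 516, against 1688 for all genes in the table) and had a weak relation to the fold change of the 29 tested (rho = -0.187).

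The IP replicates differed by more than counting error in 8 of the 30 members. The same count was not made over all genes. Over 10311 genes the IP pair also differed beyond sampling noise (chi-square over degrees of freedom 7.93), so this is no trait particular to the members. Acp54A1 (IP 2 to IP 1 ratio 1.26), Acp26Aa (1.86) and Sfp96F (2.14) were higher in PABP IP 2, and the 3 abundant Acp53 genes, Sfp77F (0.303) and Acp1 (0.249) were higher in PABP IP 1. Summed over all members, the IP libraries differed little, at 208 and 203 CPM. Without PABP IP 1 the fold change of Sfp77F was -2.60, and without PABP IP 2 it was -0.93 on the log2 scale, with the call kept in both cases.

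Most other genes tested of the male seminal fluid and of the sex peptide network were lower too. In the sex peptide network, genes that keep sex peptide on stored sperm and so prolong its effect on the female, 8 of 11 could be tested and all 8 were lower (median log2 -2.13, against -0.10 for all genes tested), with 6 called in DESeq2. The sex peptide gene SP fell from 41.3 ± 0.582 CPM to 8.59 ± 2.76 CPM (mean ± SD of 2 libraries), or by 2.28 ± 0.20 SE on the log2 scale (adjusted p = 1.43e-08). The protease homologue gene CG9997 (log2 -3.00), aqrs (-2.74) and CG17575 (-2.35) had the lowest values of the network. The protease gene Sems (-1.98), intr (-1.95) and antr (-1.29) were lower as well, as was Esp (-1.71), which acts in the female. Lectin genes lectin-46Ca and lectin-46Cb, and hdly, each had 0 counts and lie wholly inside another gene.

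Among 25 further seminal fluid genes, 22 of 24 tested were lower, 1 was higher and 1, NLaz, was not called (median -1.86), with 18 lower in DESeq2. Mst57Da (log2 -1.43), Mst57Db (-1.44) and CG10433 (-0.47) had the most counts. Dup99B, which encodes a relative of sex peptide, had a log2 fold change of -0.74 ± 0.14 SE. The higher gene was RNaseX25, a secreted ribonuclease gene (log2 0.76 ± 0.12 SE), which was not called with upper-quartile factors (0.15) or with library size alone (-0.0898). The 8 names listed for the ejaculatory duct and bulb gave 5 genes. All 5 were lower (median -2.04), from Ebp, a mating plug protein gene (-3.28), and the esterase gene Est-6 (-1.92) to EbpIII (-0.59).

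Transcription factor genes used in the gland differed among themselves. The development gene prd was not called (log2 -0.97 ± 0.48 SE, adjusted p = 0.0752), and Abd-B was lower (-1.19 ± 0.35 SE, adjusted p = 0.00537) but was not called in DESeq2 (adjusted p = 0.115). The homeobox gene dve, which is also used in the midgut, rose from 17.1 ± 1.73 CPM to 52.7 ± 2.88 CPM (mean ± SD of 2 libraries), or by 1.61 ± 0.15 SE on the log2 scale (adjusted p = 3.43e-08). The gene ems had 12 counts in sum and was not tested.

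Other gene lists give a scale for these values. The summed IP level of the 25 further seminal fluid genes was 43.8% of their input level, against 23.2% for the 47 members. RNaseX25, CG10433 and NLaz, with the highest fold changes of those 25, held 82.4, 70.9 and 41.4 of the list's 483 CPM in the IP. In the input they held 48.6, 98.6 and 50.2 of 1102 CPM. The same share was 21.8% for the sex peptide network, 26.9% for the ejaculatory duct and bulb and 19.5% for yolk protein and fat body genes. For enterocyte and digestive enzyme genes it was 24.4%, for female germline genes 27.3% and for testis genes 41.6%. Esp, which acts in the female, held 7.10 of the sex peptide network's 26.1 CPM in the IP and 23.2 of 120 CPM in the input. The gland transcription factors stood at 219%, mostly through dve, which held 52.7 of 56.9 CPM in the IP and 17.1 of 26.0 CPM in the input. The means of prd, Abd-B and ems were each lower in the IP than in the input. Of 23 testis genes tested 17 were lower and 1, mia, was higher (median -1.49), with 13 of 25 lower in DESeq2. Of 7 yolk and fat body genes 6 were lower (median -2.40), with Yp1, Yp2 and Yp3, the yolk protein genes, between -2.68 and -2.37. All 13 enterocyte and digestive genes were lower (median -2.49). Differences between these lists were not tested, and the share for seminal fluid genes lies within the range of the others.

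**Figure D3:**
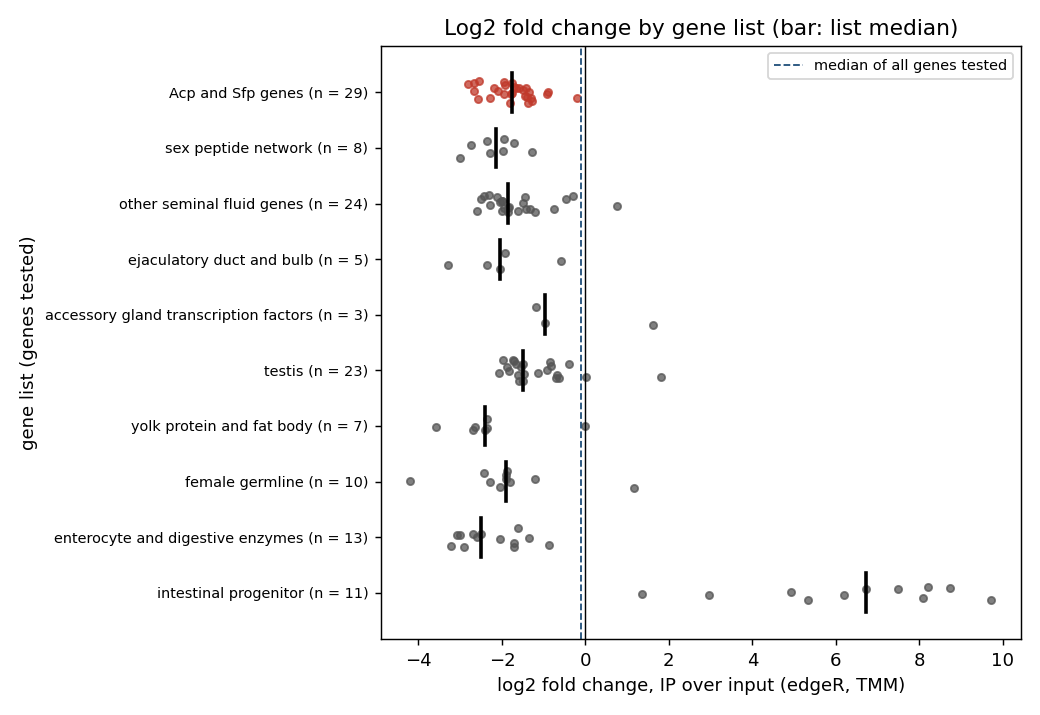
Log2 fold change of IP over input (edgeR, TMM scaling) for each gene tested, in rows by gene list, with a black bar at each list's median and a dashed line at the median of all genes tested, -0.10. The 29 Acp and Sfp genes (red) lie between -2.81 and -0.19, in the range of the other male, female and digestive lists and away from the progenitor genes, whose median is 6.73.

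Every fold change is relative to a zero point that the scaling sets. The median of all genes tested was -0.10 with TMM, -0.59 with the authors' size factors, -0.71 with upper-quartile factors and -0.95 when only library size was used. The members' median moved with it, to -2.25, -2.37 and -2.61, and stayed 1.66 below the median of all genes with TMM and with each of these 3 scalings. A scaling moves all genes by nearly the same amount, so this gap could hardly change. None of the 29 tested members changed sign under any setting tried. These 3 scalings lowered the values and so could not have turned a lower member into a higher one.

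**Figure D4:**
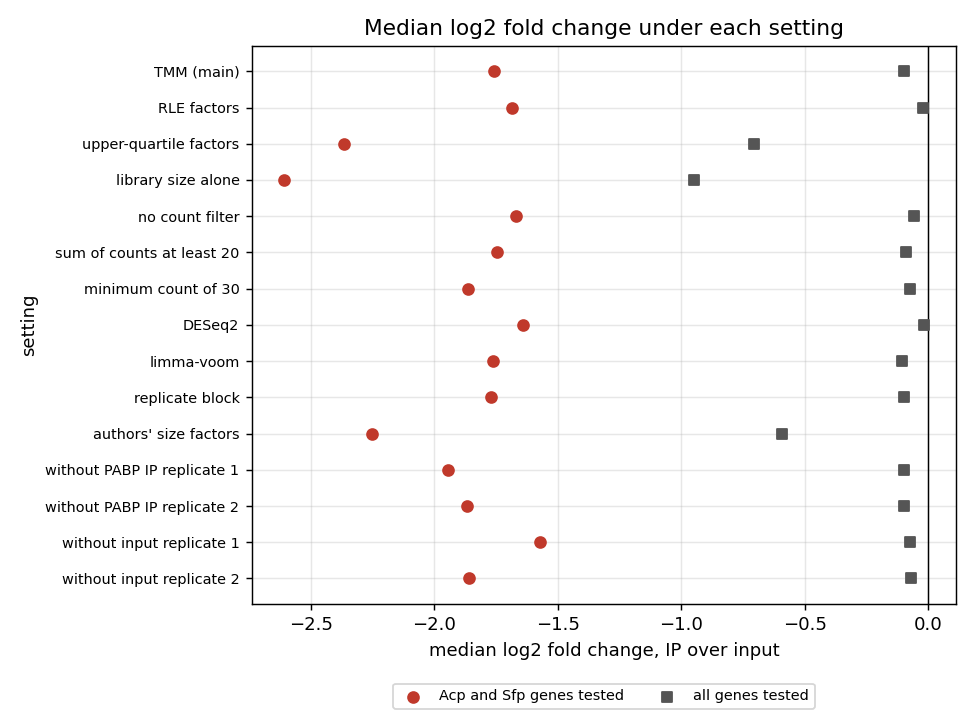
Median log2 fold change of IP over input for the tested Acp and Sfp genes (red circles) and for all genes tested (grey squares) under the main fit and each alternative. The red points lie between -2.61 and -1.57 in every row, and both points move together when the scaling changes.

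The authors' deposited table gives many of these genes much larger errors. It lists 37 members with log2 fold changes of IP over input, and of the 31 with an adjusted p it has 12 lower and 0 higher at 0.05. Of its 11295 genes with an adjusted p, 4349 (38.5%) are lower. By that table members were thus called lower about as often as genes as a whole. For the 29 members tested here, the standard errors in the authors' deposited table had a median of 1.04, against 0.35 in the edgeR fit. The ratio of the authors' deposited error to the edgeR error had a median of 3.40 for these members and 1.52 for the 9727 genes in both. These errors come from different tools and are not like measures. In DESeq2 on the same 4 libraries the error was 0.482 for Sfp93F and 0.158 for Sfp60F, against 0.296 and 0.110 in edgeR. The deposited error was higher than that DESeq2 error for Sfp93F and Sfp60F. It was lower for Sfp78E (0.746 against 0.970) and Sfp26Ac (0.875 against 1.03). How much of the gap the tool accounts for was not tested. An error above 1 in the authors' deposited table was found for 58.6% of the 29 members, against 4.26% of those genes. Sfp60F, with the most counts, has a log2 fold change of -3.17 ± 2.22 SE and an adjusted p of 0.215 in the authors' deposited table. Sfp93F has -2.26 ± 8.42 SE in the authors' deposited table, although its deposited counts were 26 and 21 in the IP and 38 and 47 in the input.

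The base mean in the authors' deposited table is not the mean of its 4 library columns. For 959 genes those columns are all 0 and the base mean in the authors' deposited table is above 0. Members among them are Acp32CD, Acp36DE, Acp62F, Acp63F and Sfp65A, with base means of 0.260 to 0.534. Where the columns are not 0, the authors' deposited base mean was 0.124 times their mean for Acp24A4, 0.129 times for Sfp60F and 2.01 times for Sfp84E, with a median of 1.43 over all genes. The base mean in the authors' deposited table thus draws on values beyond those 4 columns. Whether its fold changes and errors do so too was not tested.

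**Figure D5:**
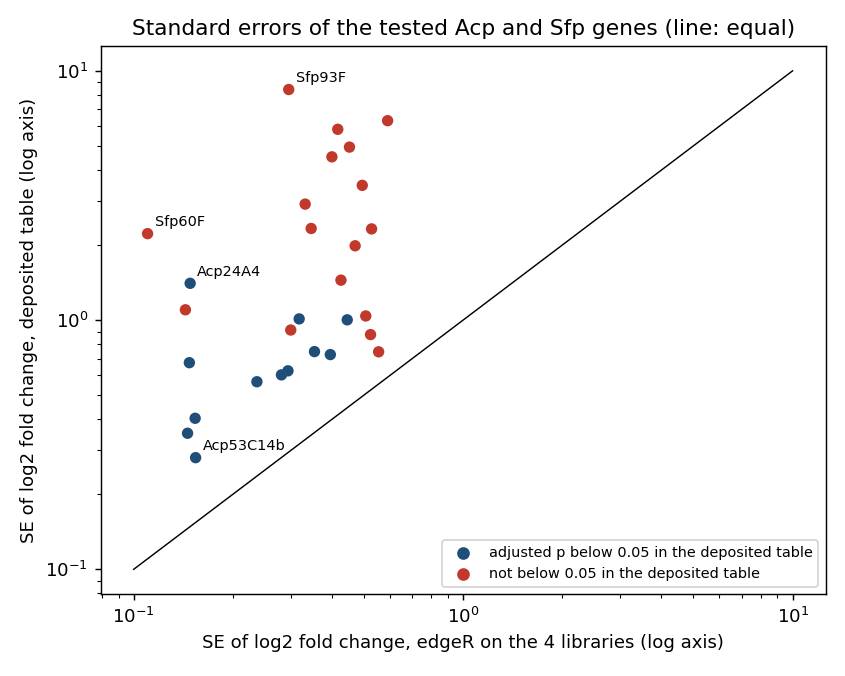
Standard error of the log2 fold change for the 29 tested Acp and Sfp genes, from edgeR on the 4 libraries (x, log axis) and from the authors' deposited table (y, log axis), with a line where both are equal. All 29 points lie above the line, and the points with an adjusted p below 0.05 in the authors' deposited table (blue) are mostly those nearest to it. The errors on the axes come from different tools.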

How the data were processed

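Per the labels' protocols, ground flies were irradiated, RNA came from bead precipitates or total extracts, and the library kit was Ovation SoLo. Per the submitters' processing notes, the software comprised STAR 2.7.3a, cutadapt 2.9, SAMtools 1.10, DESeq2 and Subread 2.0.0 (featureCounts). For settings, strandedness and genome build: not given in the sources used here, so coordinates are left out. Sequences of the members were not used here. The deposited gene table holds raw read counts, and its row with no gene name was dropped. The authors' second deposited table holds log2 fold changes, their standard errors, a Wald score, and p-values before and after adjustment. Its library columns are a scaled signal, deposited as counts over a size factor (IP 3.22 and 3.68, input 1.09 and 1.51). Gene lengths, per the file headers, equal the RefSeq span (Release 6 plus ISO1 MT) for 46 of the 47 members. All 47 matched that table as protein-coding genes, and it served for names, neighbours and nesting only.

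All genes were tested together in edgeR 4.0.16 (R 4.3.3) by glmQLFit and glmQLFTest, two-sided, after filterByExpr (minimum count 10) and TMM scaling, with Benjamini-Hochberg adjustment. A standard error is the absolute log2 fold change divided by the square root of F. CPM are counts over TMM library sizes. Ratios of pooled counts carry exact 95% conditional binomial intervals and shares carry Wilson intervals. Reads are not independent molecules, so both cover counting error only. Replicate counts differed beyond sampling noise (chi-square over degrees of freedom: 7.93 for the IP, 2.85 for the input), and each library counted once. The test was also run on simulated counts in which a small part of the genes was raised in the IP and none lowered. That setting differs from these data, where many genes were lower, so it does not check those calls. Alternatives were other scalings (RLE, upper quartile, library size), other count filters, DESeq2 1.42.0, limma-voom (limma 3.58.1), a replicate block, a threshold of 0.01 and leaving out single libraries. Scaling by the authors' size factors and dropping Acp1 and Acp65Aa were added after the data were seen. Members and lists were chosen with earlier results of these data known. The naming rule gives full statistics for the 8 members with most counts, the extremes of fold change and members without a call, for all of the sex peptide network and the gland transcription factors, and for up to 3 genes of each other list. Neighbours, further members and RNaseX25 were picked after their values were seen. Other software was Python 3.11.15 with numpy 2.4.6, pandas 2.3.3, scipy 1.17.1 and matplotlib 3.10.9.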

Additional observations from a re-analysis of the deposited data

How the results depend on the processing

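Between 18 and 28 members were lower in the IP under the alternatives, against 26 of 29 in the main fit, and none was higher under any of them. The number tested differed: 18 of 32 were lower in DESeq2, 27 of 32 without a filter and 21 of 21 at a minimum count of 30. With upper-quartile factors and with library size alone it was 28 of 29, where 5719 and 6347 of all 9989 genes were lower. Leaving out 1 library gave a median of -1.94 to -1.57 for the members, against -0.0989 to -0.0690 for all genes tested. Other scalings moved the median of the members to -2.37 (upper-quartile factors), -2.61 (library size alone) and -2.25 (authors' size factors), a shift that all genes shared. The log2 ratio of the summed level, -2.10 with TMM, became -2.72, -2.95 and -2.60 in the same order and -1.93 without Sfp60F; it ran from -2.19 to -2.02 when 1 library was left out. Over all 9989 genes tested, 3873 were lower and 3708 higher with TMM, and 6347 and 2209 by library size. In DESeq2, 2520 of 12967 genes were lower and 3531 higher. With the replicate number as a block, 26 of 29 members were lower with a median of -1.77, against 3817 of all 9989 genes. Deviations of same-numbered libraries correlated at -0.0897, so the numbers were not taken as pairs. Of 423 values of single tested members under alternatives none changed sign, 17 lost and 7 gained a call. DESeq2 lost 8 calls (Sfp79B, Sfp51E, Sfp53D, Acp53C14c, Sfp23F, Sfp24C1, Acp29AB and Sfp33A1). Calls were also lost without PABP IP 2 (Sfp51E, Sfp23F), without PABP IP 1 (Acp29AB), without input 1 (Sfp23F, Sfp24C1, Acp29AB) and without input 2 (Sfp79B, Sfp33A1). Without PABP IP 2 the value of Sfp96F was -2.00. One further call, Acp29AB, was lost at a threshold of 0.01. Sfp78E gained a call without PABP IP 2, and Sfp78E and Sfp84E did so under the 3 scalings above.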
